A study of Oryctolagus cuniculus with 6 samples.

Results

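ELAPOR1 and the genes of the exocrine secretory program are genes that glandular cells use to build, mature and release secretory granules. Their expression was examined in the conjunctiva of rabbits with concanavalin A (ConA) induced dry eye disease (DED) and of naive rabbits. Of 10 listed genes, 8 had a value: ELAPOR1, CREB3L1, CREB3L2, RAB3D, RAB27A, RAB27B, VAMP8 and SCIN. A gene was used where the platform annotation gave a probe set with that symbol alone, which holds for 15587 genes on this array. Were there several such probe sets, the highest mean over the 6 arrays would have decided, but each of the 8 had exactly 1. XBP1 had none and BHLHA15 only a probe set listed together with another gene, so neither was analysed here. The genes were listed with earlier results of these data known, and ELAPOR1 was chosen by its measured difference between the DED and naive arrays, being among the named genes that were lowest in DED. Its difference is therefore a description with no test, although it is counted among the genes past the threshold.

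All animals were adult male Dutch Belted rabbits whose nictitating membranes had been removed. DED was induced by injecting ConA, a plant lectin that activates T cells, into the periorbital lacrimal glands on days 1, 8 and 14, and conjunctiva was taken on day 18. Naive rabbits were healthy, and a sham injection is not stated in the sources used here. Each group comprised 3 Affymetrix Rabbit Gene 1.0 ST arrays, each hybridized with pooled RNA, of 3 animals (6 eyes) per pool by the series' design text and of fewer animals by the methods of the paper. The injected organ is the lacrimal gland, whereas the tissue measured is a full-thickness piece of conjunctiva with Tenon's capsule. It holds surface epithelium with goblet cells, stroma, vessels, melanocytes and immune cells, so that in every result fewer cells of a type and less RNA per cell cannot be told apart. Epithelial markers were well represented: KRT4, KRT5, KRT19, PAX6, TP63, EPCAM and ELF3 averaged log2 10.18 to 10.22 on the naive arrays and 10.31 to 10.33 on the DED arrays. They did not move alike. KRT5 was higher in DED by log2 0.59 (adjusted p = 0.00496 from limma) and KRT4 by 0.43 (adjusted p = 0.0145). KRT19 was at 0.13 and TP63 at 0.06. PAX6 was at -0.15, EPCAM at -0.20 and ELF3 at -0.06 (adjusted p = 0.188, 0.0971 and 0.59). Of 8 measured lacrimal acinar markers, SOX10 and CA6 lay among the 30% of probe sets with the lowest means. The others lay above these. Their naive means were log2 5.49 for LPO, 7.95 for LTF, 9.25 for BARX2, 10.22 for LYZ, 10.74 for DMBT1 and 11.09 for PIP.

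Exocrine cells keep finished protein in dense granules and release it on demand. In mice, XBP1 enlarges the endoplasmic reticulum (ER) and BHLHA15, also called MIST1, scales up the granule compartment. In mouse stomach and pancreas, ELAPOR1 is a membrane protein that promotes the maturation of granules, under the control of BHLHA15. Transcription factors of the CREB3 family, CREB3L1 and CREB3L2 among them, sit in the ER membrane, are cut free in the Golgi and then turn on genes for protein export. The small GTPases RAB3D, RAB27A and RAB27B mark granules and recruit the proteins that dock them, VAMP8 is a SNARE protein that fuses them with the plasma membrane, and SCIN (scinderin) severs the actin filaments that stand in their way. In goblet cells, the mucin secretors of the conjunctiva, the same kinds of machinery serve the release of mucin granules.

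In DED, ELAPOR1 was much lower, and CREB3L1, CREB3L2 and SCIN fell by smaller amounts, while the granule GTPases and VAMP8 did not pass the test. The test was that of limma across all 23364 probe sets, with p-values adjusted by the method of Benjamini and Hochberg and a threshold of 0.05. By it 4 of the 8 genes were lower, 0 higher and 4 neither. Over all probe sets 7.10% passed, 2.69% lower and 4.41% higher. Naive and DED arrays were fully separated in 5 of the 8 genes, 4 lower and 1 higher in DED, against 27.8% of all probe sets, 14.5% lower and 13.4% higher. The median log2 difference, DED minus naive, was -0.24 over the 8 genes and -0.01 over all probe sets. Since the list was drawn up with results known, nothing is read from these shares. All 8 genes lay above the 30% of probe sets with the lowest means.

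**Figure D1:**
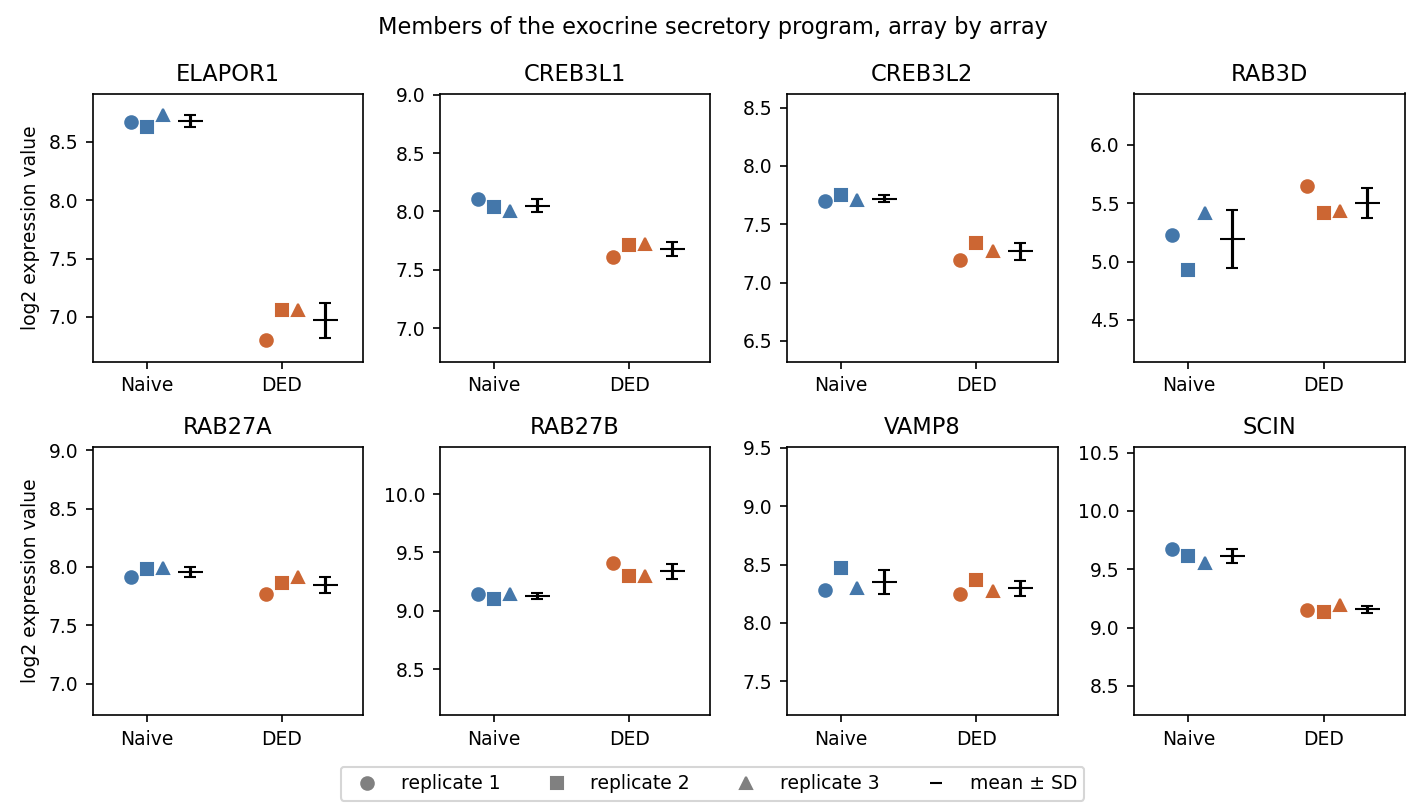
Log2 expression value of each of the 8 genes on each of the 3 naive and 3 DED arrays, with symbols for the replicate number and the mean ± SD of each group, on axes that all span the same log2 distance. ELAPOR1 drops from between 8.63 and 8.73 to between 6.80 and 7.06, the steps of CREB3L1, CREB3L2 and SCIN are smaller, and RAB27A, VAMP8 and RAB3D overlap between the groups.

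ELAPOR1 stood at log2 8.67, 8.63 and 8.73 on naive replicates 1, 2 and 3 and at 6.80, 7.06 and 7.06 on DED replicates 1, 2 and 3. The groups lay far apart, and DED replicate 1 was the lowest array. The means were 8.68 ± 0.05 in naive and 6.97 ± 0.15 in DED conjunctiva (log2, SD, n = 3 arrays). The log2 difference was -1.70 (standard error 0.09), which is 3.26-fold lower in DED. Among all 15587 genes with a single-symbol probe set, 10 had a lower log2 difference. Leaving out single arrays moved the difference between -1.75 and -1.62 only.

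The transcription factor CREB3L2, which in mouse cartilage drives the coat protein gene SEC23A and thereby collagen export, was at log2 7.70, 7.75 and 7.71 on the naive arrays and 7.19, 7.34 and 7.27 on the DED arrays. Every DED array lay below every naive array. CREB3L2 fell 1.37-fold in DED, with a log2 difference of -0.45 (standard error 0.06, 95% confidence interval -0.60 to -0.30, adjusted p = 0.00884 from limma). SEC23A itself, singled out after its value was seen, had a log2 difference of 0.08 (interval -0.07 to 0.22, adjusted p = 0.517).

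CREB3L1, which in mice is needed for bone matrix secretion and for goblet cells of the colon, was at log2 8.11, 8.04 and 8.00 in naive and 7.61, 7.71 and 7.72 in DED conjunctiva. The groups again did not overlap. CREB3L1 fell 1.29-fold, with a log2 difference of -0.37 (standard error 0.06, interval -0.52 to -0.22, adjusted p = 0.0194 from limma). It no longer passed without naive replicate 1 or 2 or without any of the 3 DED arrays (adjusted p = 0.0544 to 0.0719). The log2 ratio of CREB3L2 to CREB3L1 within an array was -0.33 ± 0.07 in naive and -0.41 ± 0.04 in DED (SD, n = 3; exact permutation test, two-sided, p = 0.2, adjusted p = 0.267 over the 4 pairs of related genes compared). The smallest p that 3 against 3 arrays allow is 0.1, so this test could not pass the threshold.

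Further members of this family were read from a list of ER stress sensors and effectors. CREB3L4, a close relative of CREB3L1 and CREB3L2, was at log2 6.16, 6.20 and 5.94 in naive and 5.29, 5.62 and 5.52 in DED. It fell 1.54-fold, with a log2 difference of -0.62 (adjusted p = 0.0229). CREB3, the founding member, had a difference of -0.02 (interval -0.15 to 0.12, adjusted p = 0.903). Thus 3 of the 4 measured genes of the CREB3 family were lower, against 2.69% of all probe sets, and CREB3L3 had no single-symbol probe set. These genes were listed with results known, so nothing is read from this count. The call of CREB3L4 was lost when naive replicate 1, naive replicate 2, DED replicate 1 or DED replicate 3 was omitted (adjusted p = 0.0614 to 0.0846). It was also lost in the plain analysis of variance (adjusted p = 0.0855).

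SCIN was at log2 9.67, 9.61 and 9.55 on the naive arrays and 9.15, 9.13 and 9.19 on the DED arrays. The 3 values of each group lay close together and the groups were well apart. SCIN fell 1.37-fold, with a log2 difference of -0.45 (standard error 0.06, interval -0.60 to -0.31, adjusted p = 0.00732 from limma), and it passed whichever array was left out. None of the measured relatives in its family, which sever or cap actin filaments, was lower by this test. CAPG, which caps filaments in macrophages and other motile cells, rose by log2 0.39 (adjusted p = 0.0112), and GSN, the widely expressed gelsolin, had a difference of 0.00 (interval -0.12 to 0.13, adjusted p = 0.982). Of 5 measured relatives of SCIN, 1 was higher, 0 lower and 4 neither, with a median log2 difference of 0.00. Over all probe sets 4.41% were higher and 2.69% lower, and nothing is read from this count. CAPG lost its call without naive replicate 2 (adjusted p = 0.0508) or DED replicate 1 (adjusted p = 0.0525). Leukocyte markers moved with CAPG: 8 of 8 measured markers were higher in DED, with a mean log2 level of 7.77 to 7.85 on the naive and 8.54 to 8.61 on the DED arrays. Their part in the result was not tested.

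**Figure D2:**
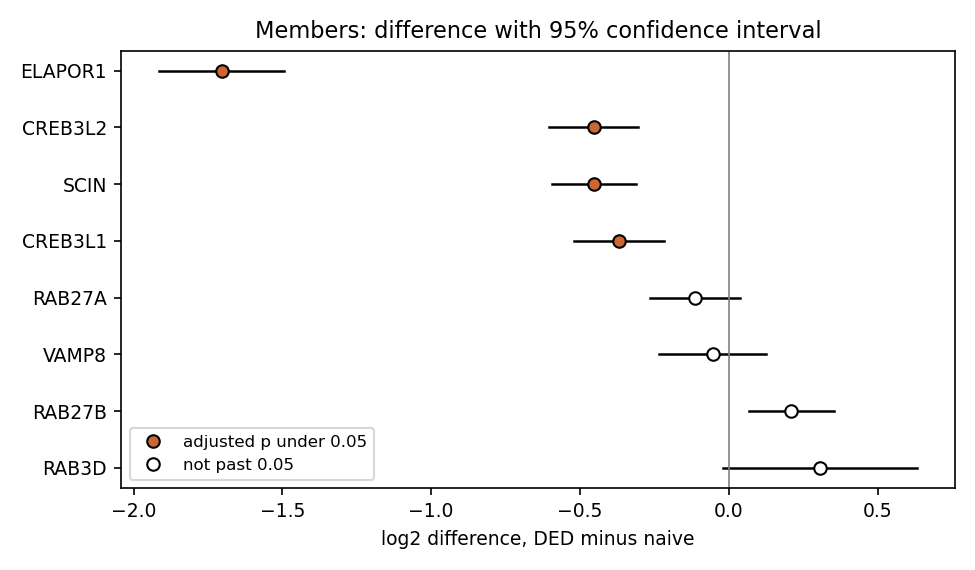
Log2 difference, DED minus naive, of the 8 genes with its 95% confidence interval from limma, where filled circles mark an adjusted p under 0.05. ELAPOR1 lies at -1.70, CREB3L2 and SCIN at -0.45 and CREB3L1 at -0.37, and the intervals of RAB27A, VAMP8 and RAB3D include 0.

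None of the 3 granule GTPases passed the test. RAB27B, the form linked to granules of exocrine glands in mice, was at log2 9.14, 9.10 and 9.14 in naive and 9.41, 9.30 and 9.30 in DED conjunctiva. All 3 DED arrays lay above the naive arrays, yet the log2 difference of 0.21 (standard error 0.06, interval 0.07 to 0.35) did not pass the test (adjusted p = 0.0952 from limma). It passed with an intensity trend in eBayes (adjusted p = 0.00657) and without the 30% dimmest probe sets (adjusted p = 0.0424).

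RAB27A, which carries melanosomes in melanocytes and lytic granules in cytotoxic T cells, was at log2 7.91, 7.98 and 7.99 in naive and 7.77, 7.86 and 7.91 in DED. The highest DED array equalled the lowest naive array. Its log2 difference was -0.11 (interval -0.27 to 0.04, adjusted p = 0.359). Some markers of cell types that use RAB27A were lower and others higher. Of 10 measured melanocyte markers 3 were lower, namely the pigment enzymes DCT, TYR and TYRP1, and 0 were higher, with a mean log2 level of 6.04 to 6.12 on the naive and 5.67 to 5.70 on the DED arrays. The other 7 did not pass: KIT at -0.35, PMEL at -0.18, MITF at -0.11, MC1R at -0.05, OCA2 at 0.00, MLANA at 0.14 and SLC45A2 at 0.18. In KIT and PMEL every DED array lay below every naive array. MC1R and SLC45A2 were among the 30% dimmest probe sets. Over all probe sets 2.69% were lower and 4.41% higher. All 8 leukocyte markers were higher, as given above. The part of either in the value of RAB27A was not tested.

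RAB3D, a GTPase of mature granules in mouse exocrine cells, was at log2 5.23, 4.93 and 5.42 in naive and 5.65, 5.42 and 5.43 in DED. The naive arrays spread over more than the distance between the groups. Its log2 difference was 0.31 (standard error 0.14, interval -0.02 to 0.63, adjusted p = 0.253), and it ranged from 0.18 to 0.42 when 1 array was left out. VAMP8, which drives granule release in mouse pancreas and also serves leukocytes and platelets, was at 8.28, 8.47 and 8.30 in naive and 8.25, 8.37 and 8.27 in DED. Its groups overlapped almost fully, with a log2 difference of -0.05 (interval -0.23 to 0.13, adjusted p = 0.741) that changed sign, to 0.01, without naive replicate 2.

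To see whether the related GTPases moved unequally, their log2 ratios within an array were compared. The ratio of RAB27B to RAB27A was 1.17 ± 0.06 in naive and 1.49 ± 0.13 in DED (SD, n = 3), higher on all 3 DED arrays than on any naive array. An exact permutation test, two-sided, gave p = 0.1, the smallest that 3 against 3 arrays allow, and 0.2 after Benjamini-Hochberg adjustment over the same 4 pairs. The ratio of RAB3D to RAB27A changed by 0.42 (exact p = 0.1, adjusted p = 0.2) and that of RAB3D to RAB27B by 0.10 (exact p = 0.7, adjusted p = 0.7). The pairs were chosen as related genes, and only changes of a ratio, not levels of different probe sets, are compared.

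Transcripts of some proteins that link granules to docking sites and motors were lower. SYTL2 and EXPH5 bind RAB27 on granules and tether them at the plasma membrane or on their way to it. SYTL2 was at log2 7.76, 7.61 and 7.69 in naive and 7.06, 7.01 and 7.24 in DED, a fall of 1.50-fold (log2 difference -0.58, interval -0.78 to -0.39, adjusted p = 0.00946). EXPH5 was at 8.54, 8.58 and 8.47 in naive and 8.03, 8.04 and 8.16 in DED (log2 difference -0.45, adjusted p = 0.0104). MYRIP, which couples RAB27 to myosin motors, had a log2 difference of -0.45 (adjusted p = 0.0277), and MYO5C, the class V myosin of exocrine secretory granules, fell 1.53-fold (log2 difference -0.61, adjusted p = 0.0219). VAMP2, a vesicle SNARE singled out after its value was seen, fell by log2 0.35 (adjusted p = 0.0283). In each of these 5 genes the groups did not overlap.

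Among 43 measured genes of granule docking and exocytosis, 5 were lower (11.6%), 0 higher and 38 neither, with a median log2 difference of -0.06. Over all probe sets 2.69% were lower and 4.41% higher. The number lower was 4 without naive replicate 1, 3 without naive replicate 3, 3 in the plain analysis of variance, and 2 without naive replicate 2 or any of the 3 DED arrays. SYTL2 passed in every one of these fits, and EXPH5 in all but that without DED replicate 1 (adjusted p = 0.0504). MYO5C was not called by the plain analysis of variance (adjusted p = 0.082) or without naive replicate 2 or any DED array (0.065 to 0.0834). MYRIP did not pass in the analysis of variance (adjusted p = 0.0767), or without any naive array or DED replicate 2 or 3 (0.0622 to 0.094).

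The same genes were also read by protein family, with the families set after the values had been seen. Of 11 RAB27 effectors 3 were lower, SYTL2, EXPH5 and MYRIP, and the other 8 lay between log2 -0.21 and 0.19. SYTL1 was at 0.05 (interval -0.11 to 0.21), MLPH, the melanosome adaptor, at -0.06 (interval -0.27 to 0.15) and UNC13D, which primes granules of leukocytes, at 0.15 (interval -0.14 to 0.43). Of 3 class V myosins MYO5C was lower, while MYO5A, a motor of melanosomes and neurons, was at 0.28 (adjusted p = 0.06) and MYO5B at 0.05 (adjusted p = 0.657). Of 11 measured SNARE proteins, VAMP8 included, VAMP2 was lower and 10 did not pass, at log2 -0.10 to 0.24. Over all probe sets 2.69% were lower and 4.41% higher, and nothing is read from the counts of these families.

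**Figure D3:**
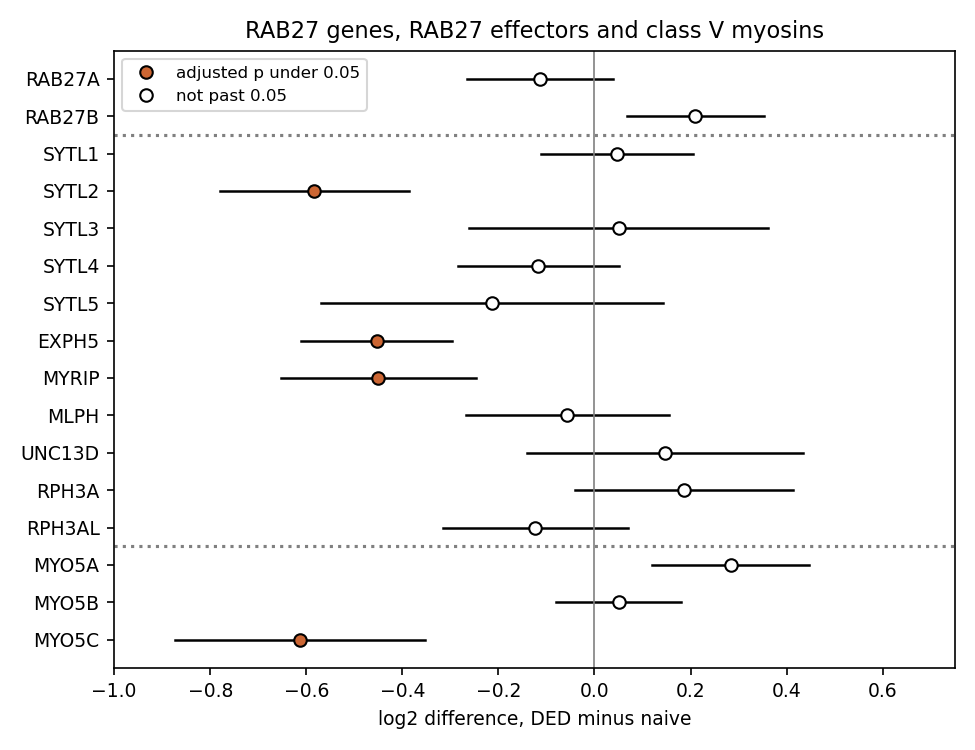
Log2 difference, DED minus naive, with its 95% confidence interval, of RAB27A and RAB27B, 11 RAB27 effectors and 3 class V myosins, separated by dotted lines, where filled circles mark an adjusted p under 0.05. SYTL2, EXPH5, MYRIP and MYO5C lie between -0.61 and -0.45, and the other effectors between -0.21 and 0.19.

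Of the sensors of ER stress, ERN2 fell. This IRE1 kinase, restricted to mucosal epithelium with goblet cells, was at log2 6.66, 6.61 and 6.59 in naive and 6.15, 6.29 and 6.37 in DED (log2 difference -0.35, adjusted p = 0.04). ERN1, the widely expressed IRE1 that splices XBP1 mRNA, had a difference of -0.12 (interval -0.35 to 0.12, adjusted p = 0.546), and whether the 2 sensors differed in their change was not tested. ATF6 was at 0.01 and EIF2AK3, which encodes PERK, at -0.02. ATF3, an early stress response factor, rose by 0.32 (adjusted p = 0.0489). Of 10 measured genes of this list 2 were lower, 1 higher and 7 neither, with a median of -0.02. Over all probe sets 2.69% were lower and 4.41% higher, and nothing is read from this count. ERN2 and ATF3 did not pass when any 1 array was left out, with adjusted p = 0.0532 to 0.123 for ERN2 and 0.0922 to 0.132 for ATF3. The plain analysis of variance did not call them either (0.0768 and 0.0837).

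The machinery that takes up and folds protein in the ER was read next. Of 30 measured genes of ER entry and N-glycosylation 1 was higher (3.33%) and 29 did not pass, with a median log2 difference of 0.04. Of 33 measured genes of ER folding and quality control 1 was higher (3.03%) and 32 did not pass, with a median of 0.12. These shares lie near those over all probe sets, of which 4.41% were higher and 2.69% lower. OSTC, a subunit of the oligosaccharyl transferase, rose by 0.36 (adjusted p = 0.0472), and TXNDC11, a thioredoxin-like protein, by 0.26 (adjusted p = 0.039). Neither passed when any 1 array was left out, with adjusted p = 0.0696 to 0.131 for OSTC and 0.0868 to 0.114 for TXNDC11. Neither of these lists held a gene that was called lower. Of the 33 genes of the folding list, the groups were fully separated upwards in 12 and downwards in 4. Over all probe sets 13.4% were separated upwards and 14.5% downwards. The lists were drawn up with results known, so nothing is read from these counts. HSPA5, the chaperone BiP, was at 0.15 (interval 0.01 to 0.30, adjusted p = 0.205), PDIA6 at 0.23 (adjusted p = 0.105) and DNAJB11 at 0.18 (adjusted p = 0.196). On the other side PDIA5 was at -0.25 (adjusted p = 0.146), DERL3 at -0.29 (adjusted p = 0.158) and HERPUD1 at -0.15 (adjusted p = 0.207), while HYOU1 and DNAJC10 were both at 0.02. These 8 genes were singled out after their values were seen, and none passed. With an intensity trend in eBayes, 4 genes of ER entry were higher and 0 lower, and 5 genes of ER folding were higher and 2 lower. Plasma cells, which depend on XBP1, express this machinery too: of 9 measured plasma cell markers 2 were higher, MZB1 by 0.49 (adjusted p = 0.00761) and POU2AF1 by 0.33 (adjusted p = 0.0195), with a mean log2 level of the list of 7.23 to 7.29 on the naive and 7.43 to 7.50 on the DED arrays. POU2AF1 did not pass when any 1 array was left out (adjusted p = 0.0574 to 0.0724). JCHAIN, the joining chain of secreted antibody, was lower on every DED array than on any naive array, at -0.22 (interval -0.35 to -0.09, adjusted p = 0.0673), and SDC1 was at -0.04 (adjusted p = 0.757). The part of these cells was not tested.

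Of the genes of transport from the ER to the Golgi, MIA3 and MCFD2 passed the test. MIA3, also called TANGO1, which loads bulky cargo such as collagen into transport carriers, fell by log2 0.40 (interval -0.54 to -0.26, adjusted p = 0.0103). MCFD2, a cargo receptor subunit, fell by 0.32 (adjusted p = 0.0204), whereas its partner LMAN1, singled out for that reason, had a difference of 0.22 (adjusted p = 0.106). Of 38 measured genes 2 were lower (5.26%), 0 higher and 36 neither, with a median log2 difference of 0.01, where 7.10% of all probe sets passed in either direction and 2.69% were lower. The number lower was 1 whichever array was left out, since MCFD2 no longer passed (adjusted p = 0.0553 to 0.078).

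**Figure D4:**
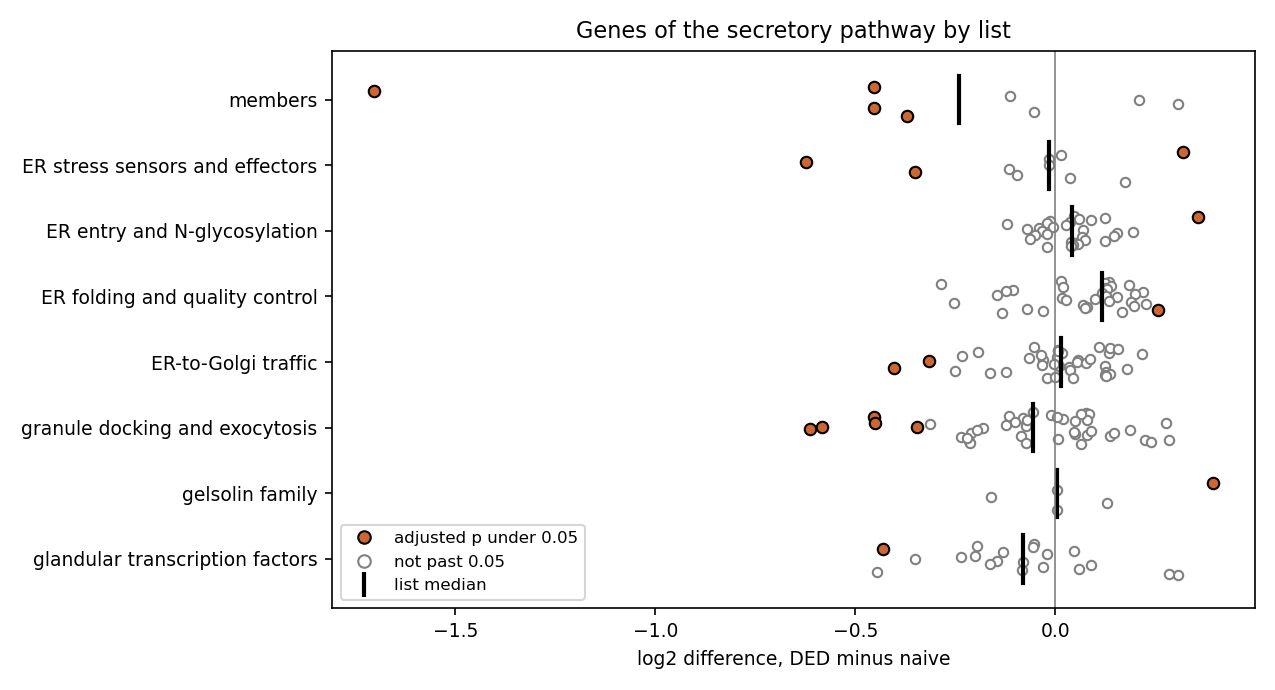
Log2 difference, DED minus naive, of the 8 genes (top row, members) and of each measured gene of 7 lists of the secretory pathway, where filled circles mark an adjusted p under 0.05 and bars the list medians. The medians of the lists lie between -0.08 and 0.12, that of the members at -0.24, and 5 genes of granule docking lie past the threshold on the lower side.

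Transcription factors of glands and secretory epithelium gave 1 lower gene of 20 measured (5%), 0 higher and 19 that did not pass, with a median log2 difference of -0.08. Over all probe sets 2.69% were lower and 4.41% higher, and nothing is read from this count. ELF5, a factor of mammary and other glandular epithelium, fell by log2 0.43 (adjusted p = 0.0227). SPDEF, the factor that directs goblet cell differentiation, was at log2 5.95, 5.76 and 6.02 in naive and 5.65, 5.47 and 5.27 in DED. Its groups did not overlap, but its difference of -0.45 (interval -0.73 to -0.17) did not pass (adjusted p = 0.0778). ELF5 passed only when naive replicate 2 was the array left out, and otherwise had adjusted p = 0.0528 to 0.0812. With an intensity trend in eBayes the number lower was 5.

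Transcripts of the proteins that such cells secrete moved both ways. Of 24 measured gland products 7 rose (29.2%), 7 fell (29.2%) and 10 did neither, with a median log2 difference of 0.05. Over all probe sets 4.41% were higher and 2.69% lower, and these shares serve for the marker counts below too. The lists were drawn up with results known, so nothing is read from these counts. PIP had a log2 difference of -4.63 (adjusted p = 1.20e-05), the lipophilin SCGB1D of -2.69 (adjusted p = 1.56e-05), SCGB1D1 of -2.23 (adjusted p = 0.00732; its probe set is among the 30% dimmest) and lactoferrin, LTF, of -1.54 (adjusted p = 6.52e-04). AZGP1 rose by 1.07 (adjusted p = 4.28e-04) and FCGBP, a mucus protein of goblet cells, by 0.68 (adjusted p = 0.00188), while the goblet cell mucin MUC5AC fell by 0.24 (adjusted p = 0.0477). Of 7 measured goblet cell markers 1 was higher and 1 was lower, with a mean log2 level of 7.77 to 7.88 on the naive and 7.84 to 7.91 on the DED arrays. Of 8 lacrimal acinar markers 2 were lower, PIP and LTF, and 2 were higher. These were LYZ by 0.27 (adjusted p = 0.039 from limma), on the brighter of its 2 probe sets, and DMBT1 by 0.37 (adjusted p = 0.0102). The dimmer LYZ probe set is not described here, and the paper's supplement lists a lysozyme C entry as lower in DED. The direction of LYZ is therefore that of 1 probe set only. The other 4, LPO, SOX10, BARX2 and CA6, lay between -0.05 and 0.07. The median log2 difference of the 8 was 0.05, with a mean log2 level of 7.95 to 8.03 on the naive and 7.25 to 7.41 on the DED arrays. The number of gland products higher was 3 without naive replicate 2, 4 when replicate 1 or 3 of either group was omitted, and MUC5AC did not pass when any 1 array was left out (adjusted p = 0.0941 to 0.141).

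Over these lists together, 203 genes were measured, of which 11 were higher (5.42%) and 17 were lower (8.37%), against 4.41% and 2.69% of all probe sets. The lists were drawn up with results known, so nothing is read from these shares. With 1 array left out the numbers were 3 to 6 and 9 to 12. The lists of platelet and of mast cell markers, whose granules also use RAB27 proteins and VAMP8, each had 1 of 7 measured members higher and 0 lower, with 3 of the 7 among the 30% dimmest probe sets. The called genes were themselves among these dim probe sets, namely PPBP, a platelet chemokine, at 0.93 (adjusted p = 0.0272), and FCER1A, the IgE receptor chain, at 0.90 (adjusted p = 0.00906). PPBP lost its call when replicate 1 or 2 of either group was omitted (adjusted p = 0.09 to 0.0928), and neither gene was called by the plain analysis of variance (0.11 for PPBP and 0.0539 for FCER1A).

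The genes whose pattern over the 6 arrays was nearest to that of ELAPOR1 were found by the root mean square difference of log2 values, each gene centred on its own mean. LOC100347536, annotated as similar to NXPE family member 3, was the nearest, with a difference of 0.07 and values of 8.66, 8.72 and 8.70 in naive and 6.78, 6.91 and 6.99 in DED. LYPD1, which encodes a membrane-anchored Ly6-type protein, was next, with a difference of 0.09 and log2 means of 7.76 ± 0.10 and 5.92 ± 0.16 (SD, n = 3). LOC100341513, a noncoding RNA, followed at 0.12, LOC100354078, annotated as similar to cytochrome P450 2F5, at 0.14, and LTF at 0.16. Pearson's r of these with ELAPOR1 was 0.98 to 1.00 over the 6 arrays, which describes mostly the step between the groups that they share.

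**Figure D5:**
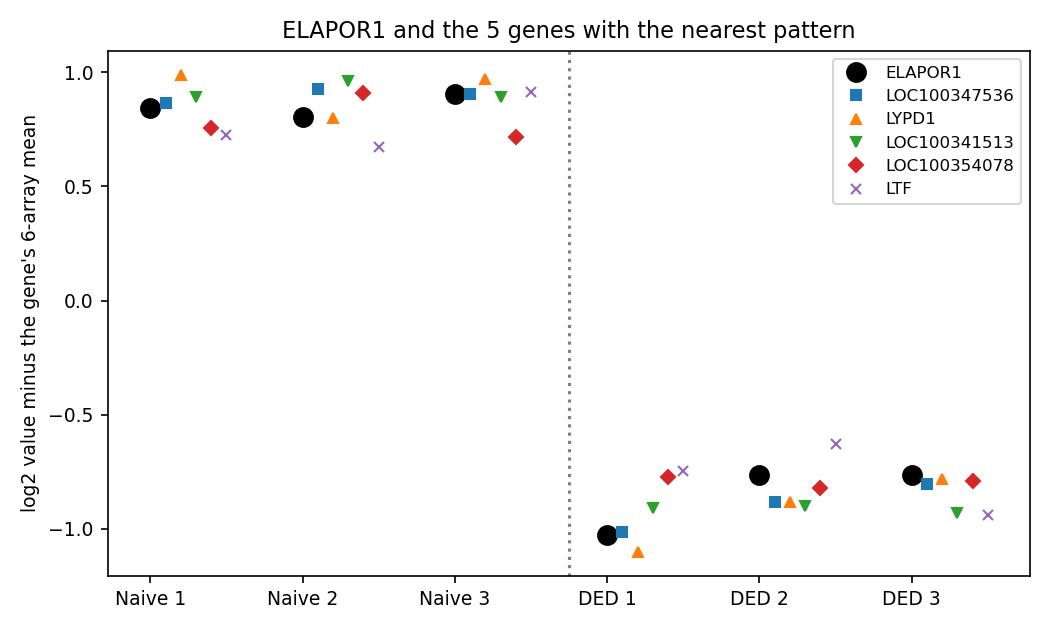
Log2 value minus the mean of the gene over 6 arrays, for ELAPOR1 (black circles) and the 5 genes with the nearest pattern, on each naive and DED array. In all 6 genes the 3 naive arrays lie above and the 3 DED arrays below the mean, and ELAPOR1, LOC100347536 and LYPD1 have their lowest value on DED replicate 1.

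Within the DED group, 1 array stood out for these genes. DED replicate 1 lay farthest from the naive mean, in the direction of the difference, in 7 of the 8 genes, and DED replicate 2 in SCIN. Over all probe sets DED replicates 1, 2 and 3 held this place in 31.4%, 34.4% and 29.6%. Without DED replicate 1 the log2 difference was -1.62 for ELAPOR1, -0.41 for CREB3L2, -0.45 for SCIN, 0.17 for RAB27B and 0.23 for RAB3D. Of the remaining nearest neighbours, NR1D2, a clock gene repressor, followed SCIN with a root mean square difference of 0.02. SGF29 followed CREB3L2 at 0.02, and AASS, an enzyme of lysine breakdown, followed CREB3L1 at 0.03. For the members that did not pass, LOC100350791 followed RAB3D at 0.04, NPAS3 RAB27A at 0.02, ARHGAP18 RAB27B at 0.01 and FADS3 VAMP8 at 0.01.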

How the data were processed

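RNA of pooled rabbit conjunctiva was hybridized to 6 Affymetrix Rabbit Gene 1.0 ST arrays. The deposited values are log2 expression per probe set, made by the authors with Robust Multi-chip Analysis in Transcriptome Analysis Console (version not given in the sources used here), and rounded to 2 decimals. Array medians were 6.18 to 6.2. Precision is limited by the small number of arrays, and the spread behind each p-value is that between pools.

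All 23364 probe sets were fitted with limma 3.58.1 in R 4.3.3 (lmFit and eBayes, no trend, two-sided), with Benjamini-Hochberg adjustment and a threshold of 0.05, and figures were drawn in Python 3.11.15. Of the probe sets, 15795 had 1 symbol, 397 several and 7172 none listed. Only the first were named. On simulated data with 200 changed probe sets, this test found 37.4% of those set to log2 0.5 and 78.6% of those set to log2 1. The real data gave 1659 calls. The adjustment depends on how many probe sets change, so these rates hold for the simulated setting only. With 3 against 3 arrays, exact permutation tests cannot go below p = 0.1.

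Members and lists were chosen with earlier results of these data known. The genes named were all measured members, up to 4 genes past the threshold per pathway list by absolute log2 difference, and markers past it. The leukocyte markers past it are given only as a count and a mean level. The 5 genes nearest to ELAPOR1 and the nearest gene of each other member were also named. Others are said to be singled out, or serve to show a list. There were 16 alternatives, among them an intensity trend, the one-way analysis of variance of the methods, other normalizations, a filter on dim probe sets, the replicate number as a block and leaving out each array.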

Additional observations from a re-analysis of the deposited data

How the results depend on the processing

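CREB3L2 kept direction and call under all 16 alternatives. The log2 difference of ELAPOR1, chosen by that difference, lay between -1.75 and -1.62, as a description. In all of them RAB3D and RAB27A did not pass. VAMP8 changed sign without naive replicate 2 (log2 0.0067, adjusted p = 0.975; -0.09 to 0.0067 over single arrays left out), and the cause was not tested. The number of the 8 genes higher in DED was 1, RAB27B, both under the intensity trend and without the 30% dimmest probe sets, and 0 to 0 with 1 array left out. The number lower was 3 to 4 with 1 array left out. Of the 203 genes of the lists, 25 were higher and 24 lower with an intensity trend, and with 1 array left out 3 to 6 were higher and 9 to 12 lower. Over all probe sets the count of calls was 1659, and 3029 with an intensity trend, 2483 of 16352 without the dimmest probe sets, 689 with the replicate block and 822 to 1028 with 1 array left out. Deviations of same-numbered arrays correlated at -0.0151, 0.0238 and -0.0565, and those of differently numbered arrays at -0.0481 to 0.0632. These values gave no sign of pairing by replicate number. With so few arrays they cannot show whether same-numbered arrays shared a processing batch. With the replicate block, 2 of the 8 genes were lower, CREB3L1 (adjusted p = 0.0968) and SCIN (adjusted p = 0.0547) having lost their call, and 2 genes of the lists were higher and 7 lower.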
